A study of Mus musculus with 6 samples.

Results

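The genes described here are Fbp2, which encodes the muscle isozyme of fructose bisphosphatase, its liver isozyme gene Fbp1, and 7 genes of glycogen synthesis and breakdown, Gys1, Pygm, Pygb, Pygl, Phka1, Gbe1 and Ugp2. Every probe carrying 1 of these symbols was taken, which gave 12 of the 25697 probes and 9 of the 18138 gene symbols of the array. The group was drawn up with the change of these genes between the hSRY-ON and hSRY-OFF hearts already in view, so their values in that comparison are a description. Standard errors, intervals and whether a probe passed the threshold set for the whole array are likewise given for these genes as a description, and not as evidence that they changed. RNA of the whole heart of male FVB pups (FVB/N in the methods) at postnatal day 6 was hybridized, with 3 hSRY-ON and 3 hSRY-OFF hearts and 1 array for each. The hSRY-ON pups carried a single copy of the Signalox-hSRY transgene at the H11 locus, in which the ubiquitous CAG promoter drives DsRed2 until Cre recombination turns on human SRY. Cre came from the oocytes of Ddx4-Cre mothers, and the hSRY-ON pups used for arrays were chosen not to carry Ddx4-Cre themselves. The methods define hSRY-OFF as the same transgene without recombination, whereas elsewhere the study describes control littermates with Ddx4-Cre only or with neither transgene, so the genotype of the control hearts is uncertain. The line rests on a single insertion, and human SRY RNA was not analysed here.

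Glycogen is the branched glucose polymer that muscle cells store. Its synthesis starts from UDP-glucose, made by the product of Ugp2, and proceeds through the primer protein glycogenin, glycogen synthase (Gys1 in muscle) and the branching enzyme (Gbe1). Glycogen phosphorylase releases glucose units again, and its muscle, brain and liver isozymes are the products of Pygm, Pygb and Pygl. Phosphorylase kinase, whose muscle alpha subunit is the product of Phka1, switches phosphorylase on. Fructose bisphosphatase reverses the phosphofructokinase step of glycolysis, and Fbp2 is the form known from muscle.

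The stretches of DNA just before the start are shown for Fbp2 and the phosphorylase genes, which had lower transcript levels in the hSRY-ON hearts. Gys1 was lower as well, but its stretch, which held no match to the letters marked here, is not shown. The stretches were read from the RefSeq annotation of GRCm38.p6, 250 bases upstream of the start and 5′ to 3′ on the strand of the gene. Capitals mark ACGTG or its reverse complement CACGT, a form of the core of the hypoxia response element. The form GCGTG was not searched and is not marked. The windows are chr13:62858401-62858650 (minus strand) for Fbp2, chr19:6384158-6384407 (plus strand) for Pygm, chr12:70227684-70227933 (minus strand) for Pygl and chr2:150786546-150786795 (plus strand) for Pygb.
Fbp2: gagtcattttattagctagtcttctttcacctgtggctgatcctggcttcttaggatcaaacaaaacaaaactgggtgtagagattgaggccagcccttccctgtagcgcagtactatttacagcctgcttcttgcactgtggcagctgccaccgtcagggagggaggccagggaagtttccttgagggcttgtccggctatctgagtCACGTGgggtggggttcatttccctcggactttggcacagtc
Pygm: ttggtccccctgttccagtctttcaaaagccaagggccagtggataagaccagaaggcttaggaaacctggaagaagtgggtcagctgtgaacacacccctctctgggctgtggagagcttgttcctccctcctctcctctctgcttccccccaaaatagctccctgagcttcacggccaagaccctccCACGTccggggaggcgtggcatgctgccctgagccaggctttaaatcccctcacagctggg
Pygl: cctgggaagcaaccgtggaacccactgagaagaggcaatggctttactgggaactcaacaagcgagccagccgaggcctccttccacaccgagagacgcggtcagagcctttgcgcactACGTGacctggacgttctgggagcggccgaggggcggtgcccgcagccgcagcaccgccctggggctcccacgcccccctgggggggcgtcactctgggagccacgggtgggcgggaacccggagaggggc
Pygb: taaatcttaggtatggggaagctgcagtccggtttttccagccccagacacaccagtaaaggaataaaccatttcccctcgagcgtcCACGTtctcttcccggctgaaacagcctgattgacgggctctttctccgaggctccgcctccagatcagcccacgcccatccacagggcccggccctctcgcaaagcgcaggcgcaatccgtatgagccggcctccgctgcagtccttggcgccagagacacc

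In Fbp2 the core lies on both strands within the palindrome CACGTG, whose first base is 42 bases upstream of the start and which is also an E-box (CANNTG). The nearest matches lay 61 bases upstream in Pygm, 131 in Pygl and 163 in Pygb. Of the 10 RefSeq promoters of the 9 genes, 5 held this form of the core, the fifth being 1 of the 2 promoters of Ugp2, whose level was not lower, while Gys1 held none. It was held by 16.6% of all 32851 promoters of the same length. The E-box letters were in 8 of the 10 and in 66.2% of all. The letters AACAAT and AACAAAG, which SRY and the related SOX factors are known to bind, were in 0 of the 10 windows on either strand, against 9.42% and 5.03% of all promoters. AAGGTCA, the site of estrogen-related receptors, and TATAAA were also in 0 of the 10, against 4.08% and 12.4%. A match of letters is a description of the sequence and says nothing of binding. Fbp2 and Fbp1 are neighbours on chromosome 13, with starts 29882 bases apart.

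Testing a probe required a detection p-value, which sets its signal against the array's own negative-control beads, under 0.05 on at least 3 of the 6 arrays. This left 7 probes of 6 of the genes, all 3 probes of Phka1 and those of Fbp1 and Gbe1 being too dim. Levels are background-corrected and quantile-normalized log2 intensities, and log2 fold changes are given as hSRY-ON minus hSRY-OFF, with an offset of 16 that shrinks the change of dim probes. In limma's test over all 12970 probes, adjusted by the Benjamini-Hochberg method, 6 of the 7 probes had an adjusted p-value under 0.05. These belonged to 5 genes and were lower in hSRY-ON, and in all 6 the groups did not overlap. Of all tested probes 27.5% passed, 13.7% of all being lower and 13.8% of all higher in hSRY-ON, and in 45.2% the groups did not overlap. Since the genes were chosen from this comparison, nothing is read from their count. The median log2 fold change of the 7 probes was -1.02, against -0.0046 over all tested probes. Without hSRY-OFF replicate 1 or hSRY-ON replicate 1, the number of probes passing over the whole array was 2206 and 2255, against 3567 with all hearts.

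Fbp2 had the widest gap between the groups among the 7 probes. In replicates 1, 2 and 3 of hSRY-OFF its log2 intensity was 9.56, 9.80 and 9.37, and in those of hSRY-ON it was 6.03, 4.87 and 5.88. The lowest hSRY-OFF heart thus lay 3.34 above the highest hSRY-ON heart. The means were 9.57 ± 0.22 and 5.59 ± 0.63 (SD, n = 3 each), a log2 fold change of -3.98 (standard error 0.30, 95% interval -4.67 to -3.29), or 15.8-fold lower in hSRY-ON.

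The size of the decrease of Fbp2 depends on how the background is treated, because its hSRY-ON signal was close to that of undetected probes. The deposited intensities were 1027, 1259 and 613 in the hSRY-OFF hearts and 192, 157 and 185 in the hSRY-ON hearts, while the undetected probes of the hSRY-ON arrays had medians of 144 to 148. Their ratio was 5.43 before any correction. In hSRY-ON replicate 2, the lowest of all, the probe was not above background (detection p-value 0.237), and in the other two hSRY-ON hearts it was. With quantile normalization but no background correction the log2 fold change was -2.19, and with 1 heart left out at a time it stayed between -4.21 and -3.61. Every hSRY-ON heart was below every hSRY-OFF heart on the deposited scale as well.

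Fbp1, the isozyme of liver and kidney, was at background in the heart. Its single probe read 5.23, 4.88 and 5.71 in the hSRY-OFF hearts and 4.92, 4.97 and 4.78 in the hSRY-ON hearts. It was above background in hSRY-OFF replicate 3 and in no other heart, so no fold change is given.

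**Figure D1:**
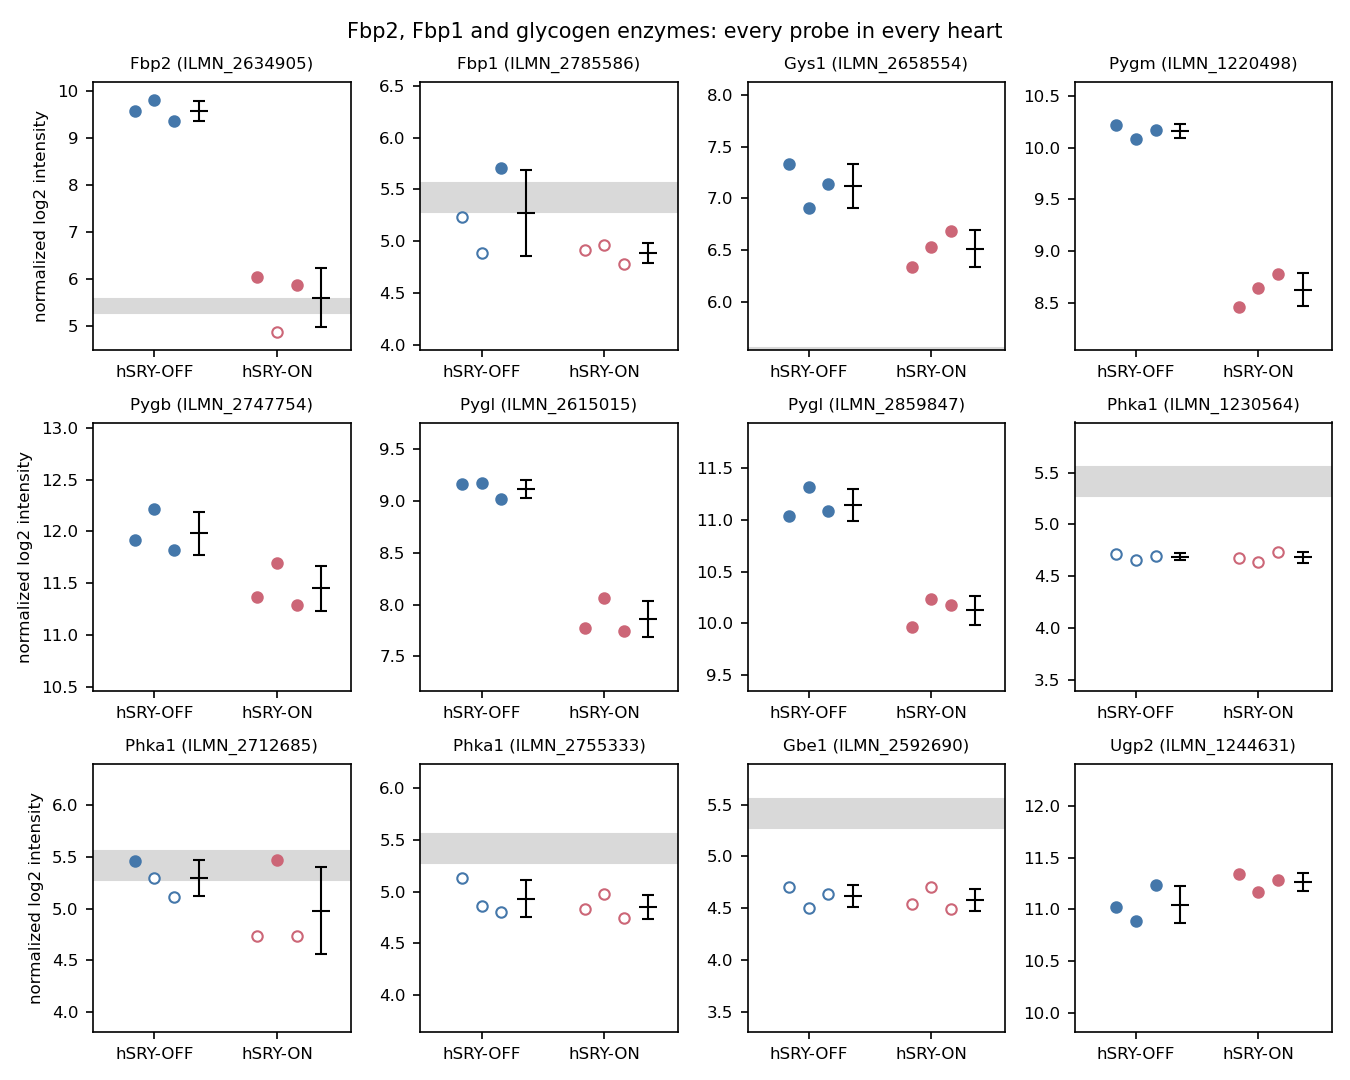
Normalized log2 intensity (y axis, with its own range in each panel) of all 12 probes in each hSRY-OFF and hSRY-ON heart (x axis, n = 3 each). Each point is a heart, filled where the probe was above background and open where it was not, bars are the mean ± SD, and the grey band spans the lowest detected value of the 6 arrays (5.28 to 5.56). Fbp2 in hSRY-ON replicate 2 is open, at 4.87, below the band, most or all points of Fbp1, Phka1 and Gbe1 are open, and Ugp2 is the only tested probe whose groups overlap.

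Among the genes of glycogen breakdown, all 3 phosphorylase isozymes were lower in hSRY-ON. Pygm, the muscle isozyme, had log2 intensities of 10.22, 10.09 and 10.18 in the hSRY-OFF hearts and 8.46, 8.64 and 8.78 in the hSRY-ON hearts. Both groups were tight, and 1.31 separated them. The means were 10.16 ± 0.07 and 8.63 ± 0.16 (SD, n = 3 each), a log2 fold change of -1.54 (standard error 0.13), or 2.90-fold lower. On the deposited scale the same probe read 1527, 1495 and 987 in the hSRY-OFF hearts against 453, 531 and 541 in the hSRY-ON hearts. Its log2 fold change lay between -1.64 and -1.25 under all other processing and between -1.61 and -1.45 with a heart left out.

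Pygl, the isozyme that serves the liver, was measured by 2 probes that pointed the same way. The probe ILMN_2615015 read 9.16, 9.18 and 9.02 in the hSRY-OFF hearts and 7.78, 8.06 and 7.74 in the hSRY-ON hearts. The probe ILMN_2859847 read 11.03, 11.32 and 11.08, and 9.96, 10.23 and 10.17. The groups were apart by 0.95 and 0.80. The log2 fold changes were -1.26 (standard error 0.13) and -1.02 (standard error 0.14), that is 2.39-fold and 2.03-fold lower.

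Pygb, the brain isozyme, which the heart is also known to express, differed least of the phosphorylases. Its log2 intensity was 11.92, 12.22 and 11.82 in the hSRY-OFF hearts and 11.36, 11.69 and 11.29 in the hSRY-ON hearts. Only 0.13 lay between the lowest hSRY-OFF and the highest hSRY-ON heart, less than the SD within either group. The means of 11.99 ± 0.21 and 11.45 ± 0.22 (SD, n = 3 each) gave a log2 fold change of -0.54 (standard error 0.16, 95% interval -0.92 to -0.16). The adjusted p-value was no longer under 0.05 without normalization between arrays, with arrays scaled to the median, without the probe filter, or without replicate 1 or 2 of hSRY-OFF or replicate 1 or 3 of hSRY-ON.

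For Phka1, the muscle alpha subunit of phosphorylase kinase, no change could be measured. The probe ILMN_2712685 read 5.46, 5.29 and 5.12 in the hSRY-OFF hearts and 4.74, 5.47 and 4.74 in the hSRY-ON hearts, and was above background in hSRY-OFF replicate 1 and hSRY-ON replicate 2. Its other two probes were above background on no array.

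On the synthesis side 2 of the genes could be tested. Gys1, the glycogen synthase of muscle, read 7.33, 6.90 and 7.14 in the hSRY-OFF hearts and 6.33, 6.53 and 6.68 in the hSRY-ON hearts, a gap of 0.22 between the groups. The means were 7.12 ± 0.21 and 6.51 ± 0.18 (SD, n = 3 each), a log2 fold change of -0.61 (standard error 0.16, 95% interval -0.97 to -0.24), or 1.52-fold lower. On the deposited scale hSRY-OFF replicate 3, the dimmest array, read 227 and hSRY-ON replicate 3 read 225, so that before normalization the groups nearly met. Without background correction the log2 fold change was -0.26. The adjusted p-value was no longer under 0.05 without normalization between arrays, with the replicate number as a block (where the difference itself was the same), or without replicate 1 of hSRY-OFF or replicate 1 or 2 of hSRY-ON.

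Ugp2, which makes the UDP-glucose that glycogen synthase uses, was the tested gene whose groups overlapped. It read 11.02, 10.88 and 11.23 in the hSRY-OFF hearts and 11.34, 11.17 and 11.29 in the hSRY-ON hearts, and hSRY-ON replicate 2 lay below hSRY-OFF replicate 3. The log2 fold change was 0.22 (standard error 0.13, 95% interval -0.09 to 0.53), an interval that leaves room for no change and for a moderate increase. Gbe1, the branching enzyme, was above background on no array, with log2 intensities of 4.71, 4.50 and 4.64 in hSRY-OFF and 4.54, 4.70 and 4.49 in hSRY-ON.

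Within each group the hearts did not hold 1 order across these probes. In hSRY-OFF, replicate 2 was the highest for Fbp2, Pygb and both probes of Pygl, but the lowest for Gys1, Pygm and Ugp2. In hSRY-ON, replicate 2 was the highest for Pygb and both probes of Pygl and the lowest for Fbp2 and Ugp2. On the deposited scale hSRY-OFF replicate 3 was the lowest hSRY-OFF heart for every tested probe of these genes.

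**Figure D2:**
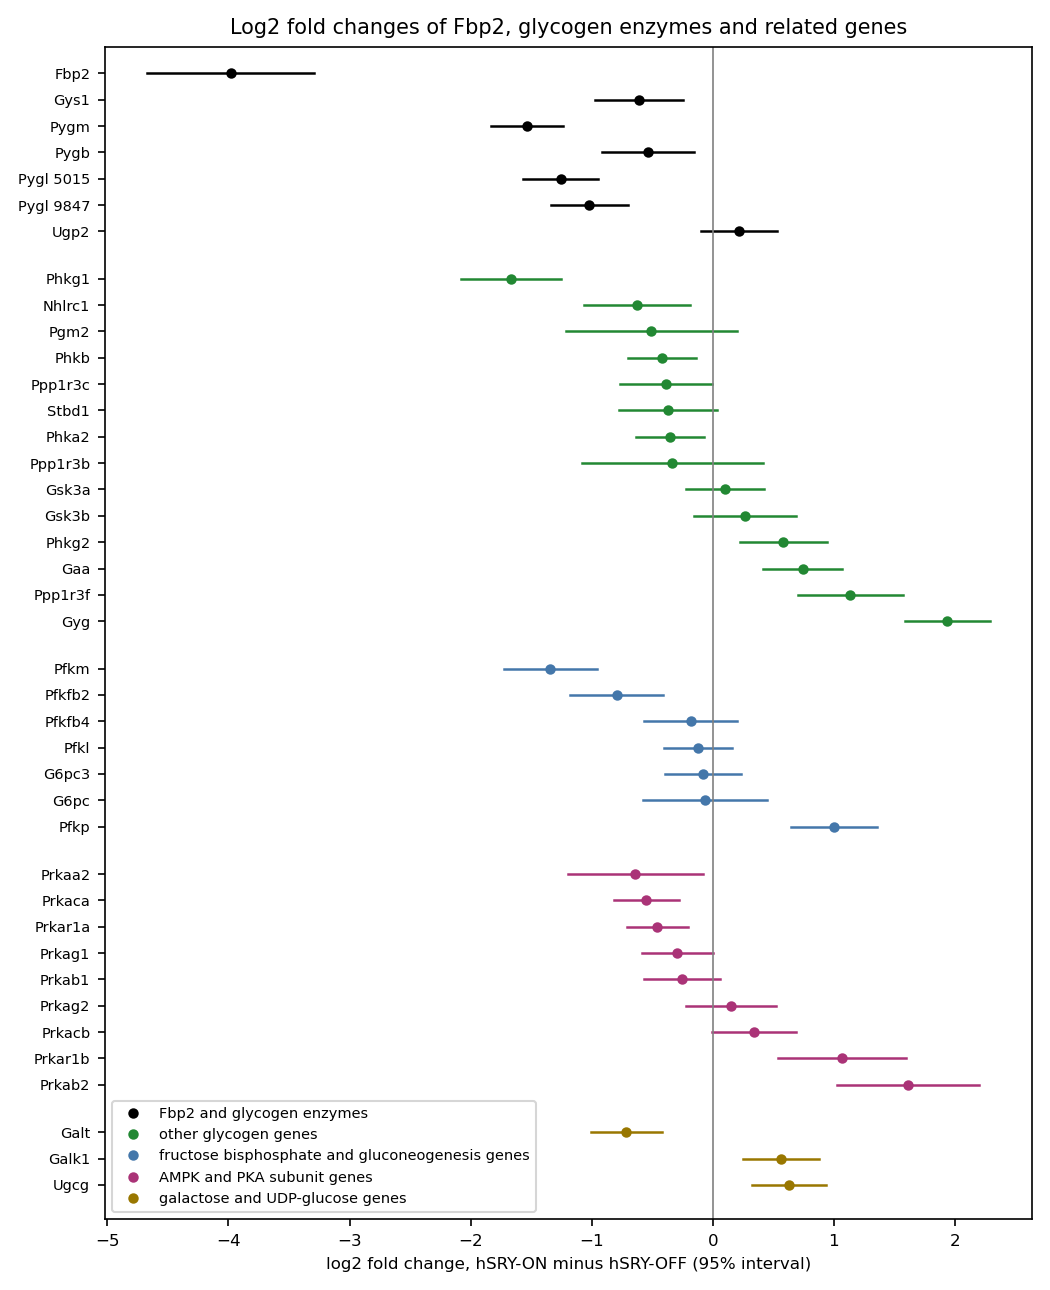
Log2 fold change, hSRY-ON minus hSRY-OFF (x axis), of the 7 tested probes (black) and of the tested genes of the 4 other lists that are reported here (in colour, 1 line per gene), with 95% intervals of the limma fit (n = 3 hearts each). Points left of 0 are lower in hSRY-ON, the 2 probes of Pygl carry the last digits of their probe names, and Fbp2 lies at -3.98 while Gyg lies at 1.94.

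The other genes of glycogen metabolism did not move in 1 direction. They were listed by function, each gene being represented by its brightest tested probe. This list and the other lists below were drawn up with earlier results of these data known, so their counts and shares are a description. Of 22 such genes 18 had a probe and 14 were tested, and 4 rose, 3 fell and 7 did not pass, so that 50% passed against 28.8% of all 9660 genes tested. Their median log2 fold change was -0.34. The first of the genes that rose was Gyg, which encodes glycogenin, the protein on which each glycogen particle is started. Its log2 intensity was 10.22, 10.03 and 9.80 in the hSRY-OFF hearts and 11.85, 12.12 and 11.90 in the hSRY-ON hearts, opposite in direction to Gys1. The log2 fold change of Gyg was 1.94 (standard error 0.15, adjusted p = 0.000236 from limma), and its other probe gave 1.67 (adjusted p = 0.00347 from limma).

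Ppp1r3f, a subunit that brings protein phosphatase 1 to glycogen, rose from 7.12, 6.85 and 6.53 to 8.16, 8.02 and 7.74 (log2 fold change 1.14, standard error 0.19, adjusted p = 0.00417 from limma). Without background correction its log2 fold change was 0.60. Gaa, the lysosomal enzyme that degrades glycogen, rose by 0.74 (standard error 0.14, adjusted p = 0.0075), a call lost without normalization between arrays.

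The subunits of phosphorylase kinase were divided. Phkg1, the catalytic subunit of muscle, had log2 intensities of 6.64, 6.95 and 7.03 in the hSRY-OFF hearts and 5.13, 4.99 and 5.51 in the hSRY-ON hearts, where it was above background on 1 array. It fell by 1.66 on the log2 scale (standard error 0.18, adjusted p = 0.000801 from limma), and without background correction by 0.53. Phkg2, the other catalytic subunit, rose from 9.16, 8.87 and 9.38 to 9.80, 9.71 and 9.65 (log2 fold change 0.58, standard error 0.15, adjusted p = 0.0273 from limma). Phkb, the beta subunit, fell by 0.42 (standard error 0.12, adjusted p = 0.0393), and its other two probes were not tested. The liver alpha subunit Phka2 had a log2 fold change of -0.35 (adjusted p = 0.0659) and did not pass, but passed without background correction (adjusted p = 0.0254), with an offset of 50 (adjusted p = 0.0494) or with an intensity trend in the fit (adjusted p = 0.0463, all from limma).

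Nhlrc1, the ubiquitin ligase malin, fell by 0.63 (standard error 0.19, adjusted p = 0.0434). The calls of Phkg2, Phkb and Nhlrc1 were the least stable of the list. Without any one of hSRY-OFF replicates 1 and 2 or hSRY-ON replicates 1 and 3, the list held 4 called genes. The 7 genes that did not pass were Phka2, Pgm2, Ppp1r3b, Ppp1r3c, Gsk3a, Gsk3b and Stbd1, with log2 fold changes from -0.51 (Pgm2) to 0.27 (Gsk3b). Without hSRY-OFF replicate 3 both of these passed, Pgm2 at -0.87 and Gsk3b at 0.45, while Pgm2 was -0.20 without hSRY-OFF replicate 2. Ppp1r3c passed with an intensity trend in the fit or without hSRY-ON replicate 2. The symbols Pgm1 and Pgm2 have been exchanged between annotations, so the isozyme behind Pgm2 is uncertain. Gys2, the liver glycogen synthase, was above background on no array.

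Genes around the fructose bisphosphate step also split by isozyme. Of 15 listed, 7 were tested, and 1 rose, 2 fell and 4 did not pass. Thus 42.9% passed, against 28.8% of all genes tested, and the median log2 fold change was -0.12. Pfkm, the muscle phosphofructokinase that opposes Fbp2, had log2 intensities of 13.89, 13.74 and 13.97 in the hSRY-OFF hearts and 12.21, 12.77 and 12.59 in the hSRY-ON hearts. Its groups were wide apart, and it fell by 1.34 on the log2 scale (standard error 0.17, adjusted p = 0.00137 from limma), while its other two probes gave -1.58 and -1.65. Pfkp, the platelet isozyme, rose from a mean of 10.91 ± 0.17 to 11.91 ± 0.21 (SD, n = 3 each, adjusted p = 0.00308 from limma), and the log2 fold change of its other tested probe was 1.14. Pfkfb2, which makes and degrades the fructose bisphosphate that regulates both enzymes and is known from the heart, fell by 0.79 (standard error 0.16, adjusted p = 0.0109).

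The 4 genes that did not pass were Pfkl at -0.12, Pfkfb4 at -0.18, G6pc at -0.06 and G6pc3 at -0.08 on the log2 scale, and the direction of the last pair turned under other settings. The gluconeogenic genes Pck1 and Pck2 were above background on no array. Pcx was above background on 2 arrays and was not tested.

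Subunits of AMP-activated kinase (AMPK), which senses cellular energy, and of protein kinase A (PKA), which acts above phosphorylase kinase, moved both ways. Of 13 listed genes 9 were tested, and 2 rose, 2 fell and 5 did not pass. Thus 44.4% passed, against 28.8% of all genes tested, and the median log2 fold change was -0.25. Prkab2, the AMPK beta subunit of muscle, which binds glycogen, rose from 6.10, 6.69 and 6.53 to 8.58, 7.72 and 7.87 (log2 fold change 1.61, standard error 0.25, adjusted p = 0.00347 from limma). Without background correction it was 0.81. Prkar1b, a regulatory subunit of PKA, rose by 1.07 (standard error 0.23, adjusted p = 0.0116), or by 0.41 without background correction. The PKA catalytic subunit Prkaca fell by 0.55 (standard error 0.12, adjusted p = 0.0116) and the regulatory subunit Prkar1a fell by 0.46 (standard error 0.11, adjusted p = 0.0181). Both calls were lost without normalization between arrays or without hSRY-OFF replicate 1, and that of Prkar1a also under the replicate block or without replicate 2 of hSRY-OFF or replicate 1 of hSRY-ON. Prkacb, another catalytic subunit of PKA, was higher by 0.34 with its groups apart, but did not pass (adjusted p = 0.13). It passed with an intensity trend in the fit (adjusted p = 0.041, both from limma). Prkab1 at -0.25 and Prkag1 at -0.29 also had their groups apart, with hSRY-ON lower, and did not pass. Prkaa2, a catalytic subunit of AMPK, had a log2 fold change of -0.64 and did not pass (adjusted p = 0.086), but passed under the replicate block (adjusted p = 0.0351) or without hSRY-OFF replicate 1 (adjusted p = 0.0403, both from limma).

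Among the genes that lead into and out of UDP-glucose, 4 of 6 were tested, and 2 rose, 1 fell and 1 did not pass. Thus 75% passed, against 28.8% of all genes tested, and the median log2 fold change was 0.17. Ugcg, which uses UDP-glucose to make glucosylceramide, rose by 0.63 (standard error 0.13, adjusted p = 0.0111). Galactokinase, Galk1, rose by 0.56 (standard error 0.14, adjusted p = 0.0195). Galt, which transfers UMP from UDP-glucose to galactose phosphate, fell by 0.71 (standard error 0.13, adjusted p = 0.00584), and its other probe gave -0.79. All 3 of these calls were lost without normalization between arrays, and that of Galk1 also without replicate 2 of hSRY-OFF or replicate 2 or 3 of hSRY-ON.

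The genes whose pattern over the 6 hearts was nearest to that of Fbp2 were Itgb6, Rpl3l, 2310076L09Rik, Tuba8 and Asb10. Nearness was the root mean square difference of log2 values, each centred on its own hSRY-OFF mean, and ran from 0.37 for Itgb6 over 0.39 for Rpl3l, 0.48 for 2310076L09Rik and 0.49 for Tuba8 to 0.50 for Asb10. They were chosen for this likeness, so their values are a description. Rpl3l, the muscle form of a ribosomal protein, read 11.13, 11.50 and 11.29 in the hSRY-OFF hearts and 7.38, 7.45 and 7.69 in the hSRY-ON hearts, above background on all 6 arrays, with a log2 fold change of -3.80. Itgb6, an integrin subunit, and Asb10 had -3.74 and -3.97, but each was above background on 1 hSRY-ON array, and without background correction the values were -1.90 and -1.99. The transcript 2310076L09Rik had -3.37. Tuba8, a tubulin, was above background on no hSRY-ON array and was therefore at least 8.69-fold lower, a bound for the background-corrected intensities.

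**Figure D3:**
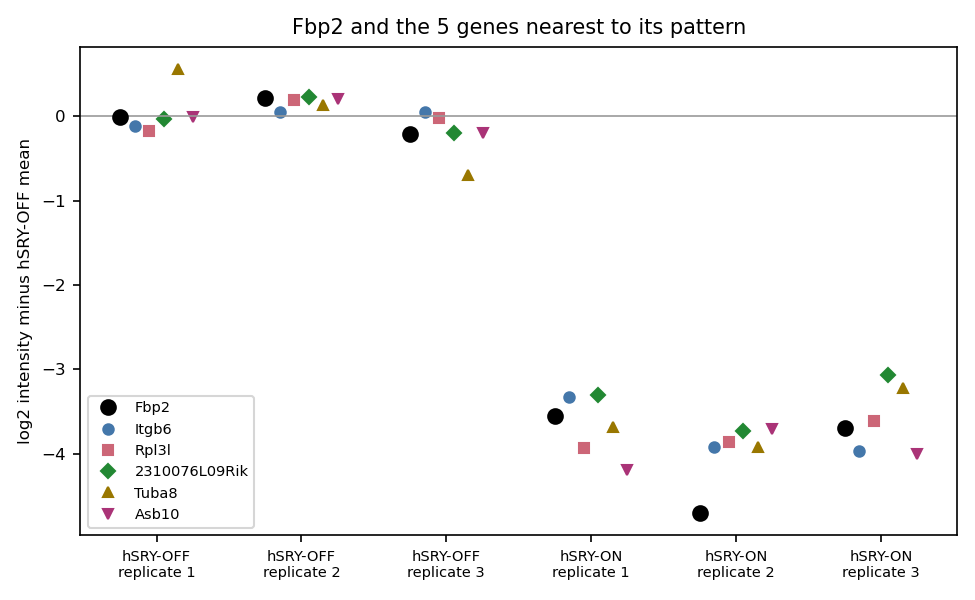
Log2 intensity minus the hSRY-OFF mean of the same probe (y axis) for Fbp2 and the 5 genes nearest to its pattern in each of the 6 hearts (x axis). Points are single values, and those of a heart are drawn side by side. All 6 genes lie within 1 of their hSRY-OFF mean in the hSRY-OFF hearts and more than 3 below it in the hSRY-ON hearts, and Fbp2 in hSRY-ON replicate 2 is the lowest point.

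Cell type markers moved as well, and in whole hearts fewer cells of a type and less RNA in each cell cannot be told apart. Of all genes tested 28.8% passed, 13.9% of all being lower and 14.9% of all higher in hSRY-ON, which the counts of markers stand beside. Of 10 cardiomyocyte markers 9 were tested and 5 fell, which were Pln at -1.47, Tnni3 at -1.13, Ryr2 at -1.09, and Mybpc3 and Myh6 at -0.51 each on the log2 scale. Ryr2 was above background on 2 hSRY-ON arrays. Ttn at -0.21, Actc1 at -0.20, Nppa at 0.14 and Casq2 at 0.23 did not pass. The groups of Ttn were apart with hSRY-ON lower, and those of Nppa and Casq2 were apart with hSRY-ON higher. In hSRY-ON Nppa had a mean of 15.42 with an SD of 0, its normalized value being set by its rank on the arrays. The size of its change is therefore uncertain. The mean log2 intensity of the 9 lay between 12.5 and 12.7 in hSRY-OFF and between 11.9 and 12.2 in hSRY-ON. Of 13 skeletal muscle markers 6 were tested, and their summed log2 intensity was 44.0 to 44.7 against 39.2 to 40.3. Acta1 at -3.25, Tnni2 at -1.91, Myh8 at -1.42 and Myog at -0.56 fell, while Mylpf at 0.38 had its groups apart but did not pass. Actn3 rose, but was above background on no hSRY-OFF array and entered the test only through the hSRY-ON hearts. The defining genes Myh1, Myh2, Myh4, Tnnt3 and Myod1 were above background on no array. Of the 4 tested macrophage markers 2 rose, with sums of 25.8 to 27.4 and 27.8 to 29.5. Of the 3 tested brown fat markers 2 rose, Ucp1 at 3.67 and Adipoq at 1.48. Ucp1 was above background on 1 hSRY-OFF array and its groups overlapped. Cidea, above background on all 6 arrays, was lower at -1.05 with its groups apart, but did not pass. The sums of the 3 were 20.3 to 25.7 and 23.8 to 28.8. Of the 4 tested smooth muscle markers Tagln and Acta2 rose, at 1.81 and 0.53, and Smtn fell, at -1.47, with sums of 42.4 to 44.0 and 42.6 to 44.5. Among the 5 tested endothelial markers Cdh5 and Tek fell, at -0.72 and -0.45, and Emcn rose, at 0.53, with sums of 54.6 to 55.2 and 53.8 to 54.3. Of the 5 tested erythroid markers Hbb-b1 fell, at -1.29, with sums of 51.9 to 56.4 and 49.5 to 54.8. In limma 0 of the 6 fibroblast markers passed, 2 having an unadjusted p-value under 0.05, with sums of 65.0 to 65.7 and 63.7 to 65.4. Neither tested marker of neurons and glia passed. Of the 6 hepatocyte markers only Ttr was tested, and it rose. Ttr was above background on no hSRY-OFF array, so it too entered the test only through the hSRY-ON hearts. Alb, Serpina1a, Afp and Fgb were above background on no array. The part of these shifts in the levels of Fbp2 and of the glycogen genes was not tested.

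**Figure D4:**
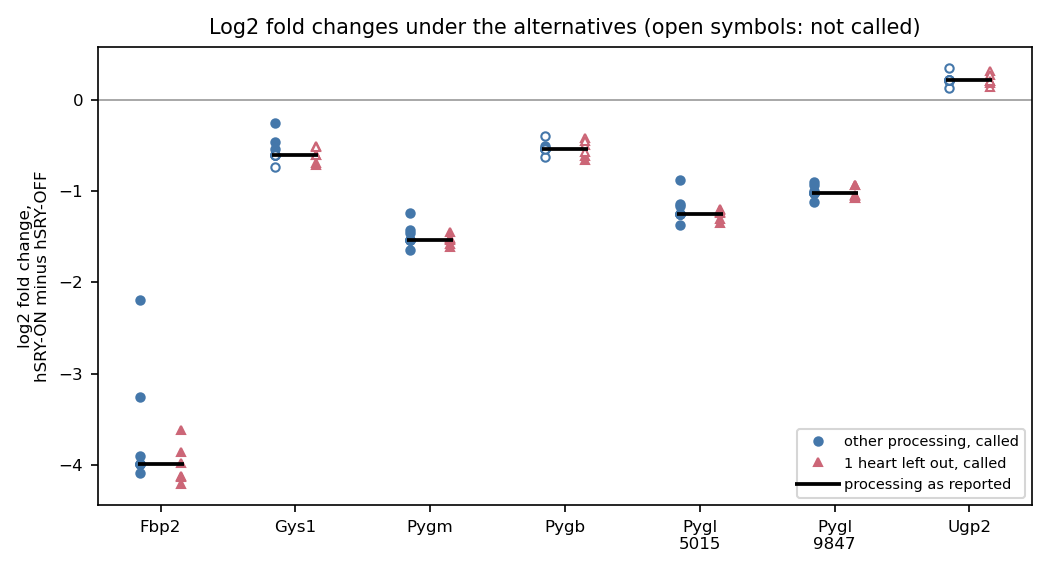
Log2 fold change, hSRY-ON minus hSRY-OFF (y axis), of each tested probe (x axis) under the other processing choices (circles) and with 1 heart left out (triangles), with a horizontal bar at the value reported. Open symbols had an adjusted p-value of 0.05 or more. Fbp2 spans -4.21 to -2.19, Pygm and both probes of Pygl are filled throughout, Gys1 and Pygb hold open symbols, and those of Ugp2 are all open, between 0.13 and 0.35.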

How the data were processed

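Total RNA of 6 hearts, 3 for each group as the sample labels give them, was labelled as biotinylated cRNA and hybridized to MouseRef-8 BeadChip arrays. For each probe the authors deposited a mean bead intensity that had not been normalized, on a linear scale from which no background had been subtracted, and a detection p-value against the negative-control beads. The submitters' processing notes name limma and the methods name TCC, with settings not given in the sources used here.

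Intensities were processed in R 4.3.3 with limma 3.58.1. The neqc function inferred the negative controls from the detection p-values, corrected the background, added an offset of 16, quantile normalized and took log2. Probes detected at 0.05 on at least 3 of 6 arrays entered a limma fit (lmFit, eBayes) of the group alone. Its two-sided p-values were adjusted by Benjamini-Hochberg over these probes, with a threshold of 0.05. The steps were tested on simulated data with far fewer changed probes than were called here. That simulation cannot show how the calls depend on the normalization. Python 3.11.15 with matplotlib 3.10.9 made the figures.

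Between 47.2% and 51.3% of probes were detected per array, and median intensities were 156 to 201. Precision is limited by the number of arrays, and an exact permutation test of 3 hearts against 3 cannot go below 0.1. The labels do not say whether hearts came from separate litters, so the spread is that between these samples. No pair of arrays held identical values.

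The genes and lists were chosen with earlier results of these data known. The text names every probe of the 9 genes, the called genes of the 4 other lists and the 5 genes nearest to Fbp2 in pattern, together with cell type markers. Some genes that did not pass were named after their values were seen. One gene of the lists is counted but its values are not reported here. Promoters came from RefSeq and were searched on both strands. Alternatives were an offset of 50 or no background correction, arrays left unnormalized or scaled to the median of detected probes, no filter or a stricter one (a detection p-value under 0.01, or detection on all 6 arrays), an intensity trend in eBayes, the replicate number as a block, and leaving out 1 heart at a time.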

Additional observations from a re-analysis of the deposited data

How the results depend on the processing

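Without normalization between arrays, 1897 probes, 3 other glycogen genes, 2 AMPK and PKA genes and 0 galactose and UDP-glucose genes passed (limma, of which 1 of the last list at an unadjusted p-value under 0.05), against 3567, 7, 4 and 3. The share of called probes that were higher was then 38.5%, against 50.1% with quantile normalization and 65.1% with arrays scaled to the median of detected probes, and the median of all tested probes was -0.12. With the replicate number as a block, 4 other glycogen genes passed. The deviations of equally numbered hearts from their group means correlated at -0.0248, 0.0375 and -0.0655. With 3 hearts in each group and no litters in the labels, these values cannot decide whether the numbers pair the hearts. With 1 heart left out at a time, 2206 to 3669 probes passed, 4 to 6 of the 7 probes of Fbp2 and the glycogen genes described with it, 4 to 9 other glycogen genes, 3 fructose bisphosphate and gluconeogenesis genes throughout, 3 to 4 AMPK and PKA genes and 2 to 3 galactose and UDP-glucose genes. Changes of sign occurred in genes that did not pass. G6pc was 0.00085 with arrays scaled to the median and ranged from -0.217 to 0.164 with 1 heart left out (0.0567 without hSRY-OFF replicate 3 and 0.164 without hSRY-ON replicate 1), and G6pc3 was 0.0284 with arrays scaled to the median. The cause was not tested. Of 665 comparisons of 45 named probes with an alternative, 599 kept direction and call, 52 lost the call, 10 gained it and 4 changed sign. Signal over background limits Fbp2 and Phkg1 in hSRY-ON, and leaves Fbp1, Phka1 and Gbe1 without a measured change.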
